A study of Mus musculus with 3 samples.

Results

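The genes described here are 10 transcription factors that steer blood progenitors into myeloid and erythroid fates: Cebpa, Cebpe, Gfi1, Cebpb, Cebpd, Spi1, Gata1, Klf1, Tal1 and Gata2. They were taken by gene name from a list of lineage factors, and all 10 were found among the 33696 genes counted. Their messenger RNA was counted in single cells of mouse spleen in 3 libraries, labelled MASH-Phe-free (called Phe-free below), MASH and Chow, with 1 library in each group. MASH stands for metabolic dysfunction-associated steatohepatitis, a fatty and inflamed liver, and the series title places phenylalanine in MASH with liver cancer. The spleen labels give the tissue and the group name; strain, age, sex, diet, how many animals were pooled and any tumours are not given for the spleens. The series text describes C3H mice given a high-fat and then a methionine- and choline-deficient diet, with implanted HCA-1 liver tumours whose RNA was extracted in bulk, and does not tie that design to the spleens.

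The spleen of an adult mouse filters blood and houses lymphocytes, and it can also make red cells and granulocytes outside the bone marrow, a process that expands under stress. PU.1, the product of Spi1, and C/EBPα, the product of Cebpa, open the myeloid programme. GFI1 and C/EBPε carry it toward neutrophils, and C/EBPβ and C/EBPδ act in mature and inflamed myeloid cells. GATA2 works in stem cells, progenitors, mast cells and basophils. GATA1 replaces GATA2 as cells turn into erythroblasts, and it also acts in megakaryocytes, basophils and eosinophils. TAL1 (also called SCL) is a partner of GATA1 in a DNA-bound complex, and KLF1 is the factor that switches on adult globin. GATA1 and PU.1 are known to oppose each other.

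Because members of the group act on each other's genes, the start regions of the erythroid members are shown first. RefSeq windows of 250 bases before a start (assembly GRCm38.p6) were held for 7 of the 10 genes, in 10 windows; Cebpd, Cebpe and Spi1 were not matched. The capitals mark GATA motifs (AGATAA or TGATAA) and the KLF motif CACACCC, searched on both strands; TTATCT and TTATCA are the GATA motifs on the opposite strand. The windows lie at chrX:7967911-7968160 (minus strand) for Gata1, chr8:84901732-84901927 (plus strand, shortened to end before an annotated exon) for Klf1, chr4:115056176-115056425 (plus strand, first of 2 starts) for Tal1 and chr6:88193641-88193890 (plus strand, first of 2 starts) for Gata2.
Gata1: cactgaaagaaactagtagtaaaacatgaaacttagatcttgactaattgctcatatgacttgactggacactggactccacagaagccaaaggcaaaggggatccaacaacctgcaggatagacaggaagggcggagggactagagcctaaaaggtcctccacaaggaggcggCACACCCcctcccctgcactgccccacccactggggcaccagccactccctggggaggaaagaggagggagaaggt
Klf1: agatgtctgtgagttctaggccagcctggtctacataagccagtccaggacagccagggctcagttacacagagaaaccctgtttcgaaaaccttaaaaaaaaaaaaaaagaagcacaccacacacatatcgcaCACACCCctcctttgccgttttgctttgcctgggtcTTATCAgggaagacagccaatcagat
Tal1: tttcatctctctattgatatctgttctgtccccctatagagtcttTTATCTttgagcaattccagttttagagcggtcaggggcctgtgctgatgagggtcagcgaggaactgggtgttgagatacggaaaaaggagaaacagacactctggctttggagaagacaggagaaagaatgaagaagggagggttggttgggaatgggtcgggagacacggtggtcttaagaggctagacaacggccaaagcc
Gata2: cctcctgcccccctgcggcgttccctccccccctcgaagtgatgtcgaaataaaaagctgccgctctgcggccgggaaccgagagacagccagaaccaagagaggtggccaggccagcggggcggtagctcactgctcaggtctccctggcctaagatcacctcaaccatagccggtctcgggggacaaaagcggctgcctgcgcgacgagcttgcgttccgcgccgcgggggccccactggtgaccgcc

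The Klf1 window held a GATA motif that began 80 bases before the start and a KLF motif that began 116 bases before it. The Gata1 window held a KLF motif at 76 bases and the ETS motif AGGAAG, the kind of site PU.1 binds, at 125 bases. The first Tal1 window held a GATA motif at 205 bases and the C/EBP motif TTGCNNAA at 199 bases. Of the other windows, those of Gfi1 held a C/EBP motif at 143 bases before the first start and an ETS motif at 108 bases before the second, while those of Cebpa, Cebpb and Gata2 held none of the motifs. Over all 32851 windows of the same length, 16.6% held a GATA motif, 6.93% the KLF motif, 29.5% the ETS motif and 9.56% the C/EBP motif, and a match describes the letters of a window only.

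The Phe-free, MASH and Chow libraries held 160115282, 152501471 and 138787602 unique molecular identifiers (UMIs, each 1 captured RNA molecule) in 16778, 19219 and 16495 cell barcodes. After filters and doublet removal 15560, 17333 and 15669 cells were kept, and their clusters were named from marker genes as "like" a cell type. Between 72 and 102 barcodes were shared by any pair of libraries and none by all 3. Levels are UMIs of a gene per 1000000 UMIs (CPM), over a library or over the cells of a type. With 1 library per group no difference could be tested, and the 95% intervals given are exact ones for counting error only. A gene is called past 1.5-fold where it had at least 20 UMIs over both libraries and a ratio of at least 1.5 or at most its inverse.

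The whole-library levels fell into an erythroid and a myeloid pattern. The erythroid factors were several-fold higher in both MASH libraries than in Chow, and Cebpe and Cebpa, which act in granulocytes, were lower in MASH than in Phe-free or Chow. Gata1, the master factor of erythroid cells, had 47.5 CPM in Phe-free, 34.5 CPM in MASH and 8.43 CPM in Chow. Klf1 had 68.1, 55.8 and 9.91 CPM in Phe-free, MASH and Chow, and Tal1 had 26.8, 22.9 and 5.60 CPM. All 3 genes thus stood lowest in Chow. Cebpe, the factor of granule formation, had 58.1 CPM in Phe-free, 7.59 CPM in MASH and 39.6 CPM in Chow. Cebpa had 17.4, 10.1 and 17.1 CPM in Phe-free, MASH and Chow, so that only MASH stood apart. Cebpd, an inflammation-responsive member of the family, had 105, 50.9 and 73.5 CPM, and Gfi1, a repressor needed for neutrophils, had 6.30, 3.74 and 5.27 CPM, both with the same order of libraries. Cebpb (204, 168 and 203 CPM), Spi1 (292, 210 and 229 CPM) and Gata2 (4.72, 4.27 and 5.08 CPM) spanned less than 1.5-fold.

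**Figure D1:**
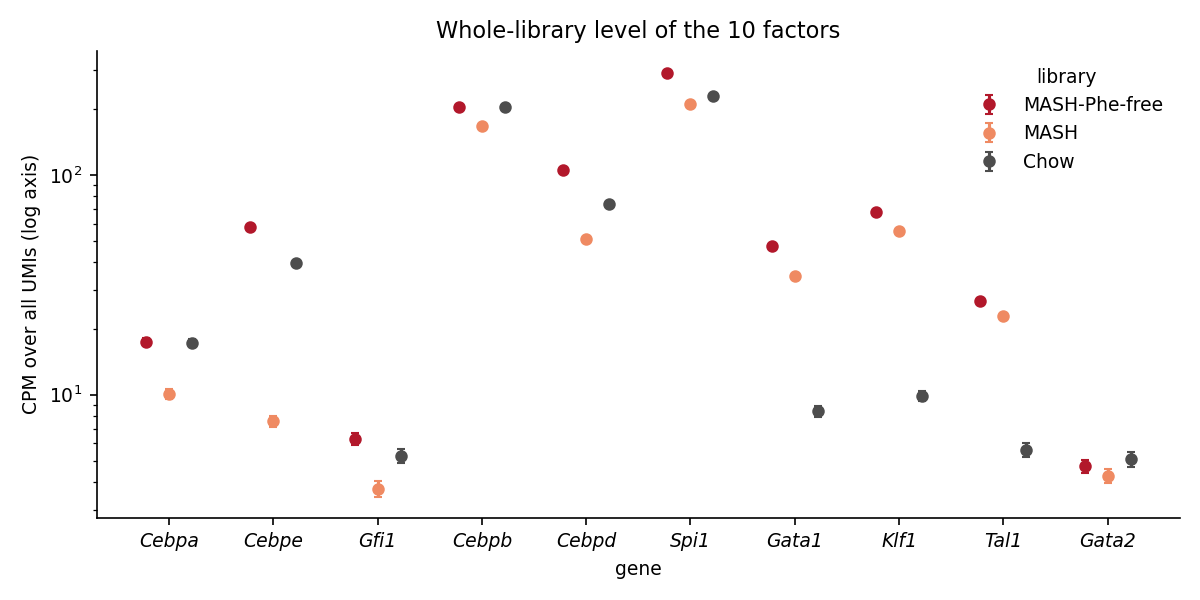
Whole-library level of each of the 10 factors in CPM on a log axis, with 1 point per library (MASH-Phe-free, MASH, Chow from left to right) and exact 95% counting intervals. Gata1, Klf1 and Tal1 are lowest in Chow, and Cebpe falls to 7.59 CPM in MASH, against 39.6 CPM in Chow.

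In MASH over Chow, 5 of the 10 factors were past 1.5-fold, where 16.5% of the 19492 genes tested were. Klf1 was 5.64-fold (5.32 to 5.97), Gata1 4.10-fold (3.85 to 4.37) and Tal1 4.08-fold (3.78 to 4.42) as high in MASH as in Chow. Cebpe was lower, at a ratio of 0.191 (0.179 to 0.204), and so was Cebpa, at 0.588 (0.551 to 0.627). In Phe-free over MASH, 4 of the 10 were past 1.5-fold, all higher, where 17.9% of genes were past it and 8.82% were higher. The ratios were 7.66 (7.21 to 8.15) for Cebpe, 2.07 (2.02 to 2.13) for Cebpd, 1.73 (1.62 to 1.84) for Cebpa and 1.68 (1.52 to 1.87) for Gfi1. The erythroid factors stood only a little higher in Phe-free than in MASH, at 1.37 for Gata1, 1.22 for Klf1 and 1.17 for Tal1. In Phe-free over Chow, 3 of the 10 were past 1.5-fold, where 25.2% of genes were: Klf1 at 6.87 (6.49 to 7.27), Gata1 at 5.63 (5.29 to 5.99) and Tal1 at 4.79 (4.44 to 5.18). Cebpe was 1.47 and Cebpd 1.43 there, and both passed 1.5-fold, at 1.58 and 1.55, when libraries were scaled by the median of gene ratios, which moved all genes by 0.11 on the log2 scale. The 3 comparisons share libraries, so their results are not separate pieces of evidence.

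For Gata1, Klf1, Tal1 and Cebpe these whole-library differences went with the number of cells of the types that carry the genes. A change in cells cannot be told apart from a change in RNA per cell in a whole-library value. Early erythroid-like cells made up 4.25% of Phe-free, 3.45% of MASH and 0.645% of Chow cells (662, 598 and 101 cells). Immature neutrophil-like cells made up 5.78%, 0.565% and 3.16% (899, 98 and 495 cells), and promyelocyte-like cells 1.17%, 0.173% and 0.402% (182, 30 and 63 cells). Classical monocyte-like cells, which held 1264, 745 and 1075 Cebpa UMIs, made up 4.70%, 2.75% and 2.83%, nearly alike in MASH and Chow. When the levels within types were kept but each library was given the same cell-type makeup, 1 of the 10 factors stayed past 1.5-fold in MASH over Chow, Cebpa at 0.581, and none did in Phe-free over MASH or Phe-free over Chow. Cebpe then had ratios of 0.848 in MASH over Chow and 1.13 in Phe-free over MASH. At equal makeup in MASH over Chow, Klf1 was at 1.49, Gata1 at 1.32 and Tal1 at 1.21. The share of all genes past 1.5-fold at equal makeup is not given here, so these counts cannot be set against other genes.

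**Figure D2:**
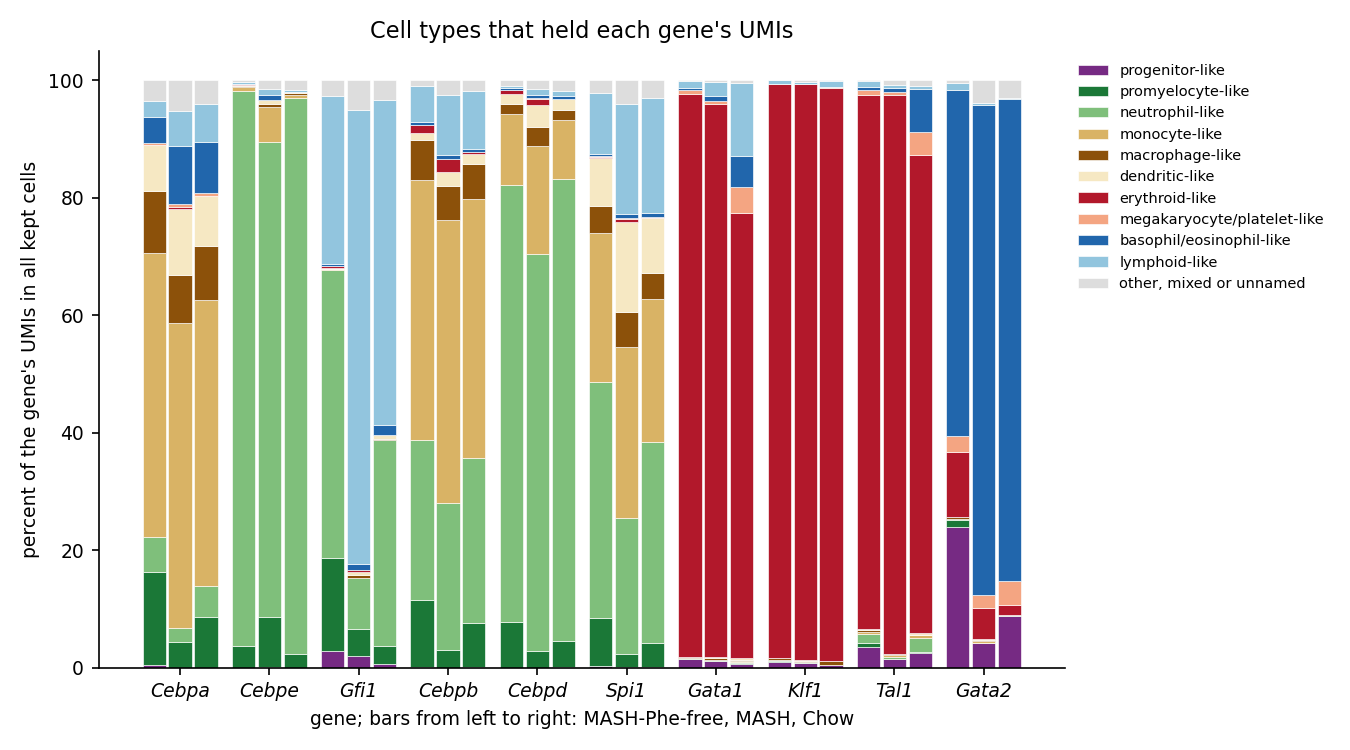
Share of each factor's UMIs, in percent of those in all kept cells (mixed and unnamed cells included), that came from each group of cell types, with bars for MASH-Phe-free, MASH and Chow from left to right. Klf1 came almost wholly from erythroid-like cells in all 3 libraries, while the neutrophil-like part of Gfi1, Cebpd and Spi1 was smallest in MASH.

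Cebpe marked the immature neutrophil stage. It reached 498 CPM in Phe-free, 434 CPM in MASH and 521 CPM in Chow in immature neutrophil-like cells, named from granule genes such as Camp, Ltf and Ngp. These cells held 93.6% of the gene's UMIs in Phe-free, 78.5% in MASH and 94.1% in Chow, where such shares are of the UMIs in all kept cells, mixed and unnamed ones included. Promyelocyte-like cells, which express Mpo and Elane, had 47.0, 82.6 and 50.9 CPM in Phe-free, MASH and Chow. Mature neutrophil-like cells had 18.2, 7.70 and 12.2 CPM, so the level stood high at 1 stage and low on both sides of it in every library. A UMI of Cebpe was found in 78.9% of Phe-free, 75.5% of MASH and 83.8% of Chow immature neutrophil-like cells. After thinning every cell to 2000 UMIs the shares were 46.4%, 42.7% and 54.9%. In B-like cells, which should lack the gene, at most 0.325% of cells of a library had a UMI before thinning. Eosinophil-like cells also held the gene, with 7, 10 and 1 UMIs in 11, 35 and 12 cells of Phe-free, MASH and Chow, which is too few for an order of levels.

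The immature neutrophil-like cells fell into 3 clusters that set the factors in order. In the deepest cluster, led by Camp, Ngp and Fcnb, Cebpe had 678, 653 and 681 CPM in Phe-free, MASH and Chow. In the middle cluster it had 429, 387 and 479 CPM, and in the last, led by the mature-cell gene Retnlg, 60.2, 29.1 and 112 CPM. Gfi1 went the same way, with 46.1, 51.8 and 43.4 CPM in the first cluster and 1.77, 0 and 4.06 CPM in the last, from 3, 0 and 3 UMIs. Cebpd went the other way, with 350, 394 and 372 CPM in the first cluster and 624, 585 and 613 CPM in the last. MASH had only 20, 55 and 23 cells in the first, middle and last cluster, and its Cebpe value in the last came from 8 UMIs. The clusters were made without the 10 factors among the genes used, but with genes that vary with them.

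Gfi1 was found across progenitor-like, granulocytic and lymphoid types. Immature neutrophil-like cells had 27.8 CPM in Phe-free, 21.6 CPM in MASH and 24.9 CPM in Chow, and progenitor-like cells 20.6, 22.8 and 10.5 CPM. These ranges overlap, as do those of the next type, promyelocyte-like cells with 21.7, 21.7 and 8.15 CPM. In promyelocyte-like cells the ratio of Phe-free over Chow was 2.66 (1.68 to 4.41), from 157 and 21 UMIs, where 19.7% of genes were past 1.5-fold. Natural killer (NK)-like cells had 14.8, 16.8 and 18.4 CPM in Phe-free, MASH and Chow and T-like cells 8.37, 9.78 and 7.64 CPM. Basophil-like cells had 10.6, 14.0 and 24.5 CPM, from only 4, 6 and 12 UMIs. Immature neutrophil-like cells supplied 48.5% of Gfi1 UMIs in Phe-free, 8.06% in MASH and 34.7% in Chow, and T-like cells 16.7%, 47.3% and 33.0%. The largest share thus came from immature neutrophil-like cells in Phe-free and from T-like cells in MASH, and the 2 types were close in Chow. Cells with both Cebpe and Gfi1 made up 25.0% of Phe-free, 18.4% of MASH and 26.9% of Chow immature neutrophil-like cells, where 20.2%, 14.6% and 23.2% would carry both if the genes were independent. After thinning only 1.97%, 3.12% and 1.47% carried both, so these shares depend on depth.

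Cebpd and Cebpb were highest later in the myeloid lineages. Cebpd was highest in mature neutrophil-like cells, at 1198 CPM in Phe-free, 1219 CPM in MASH and 1425 CPM in Chow. It had 423, 448 and 442 CPM in immature neutrophil-like cells and 174, 176 and 175 CPM in promyelocyte-like cells of Phe-free, MASH and Chow, steps that did not overlap. Within these 3 types the libraries lay within 1.5-fold of each other. Immature neutrophil-like cells held 44.6% of Cebpd UMIs in Phe-free, 12.5% in MASH and 43.5% in Chow; their part in the low whole-library value of MASH was not tested. The counted gene Spidr overlaps Cebpd in the annotation, so some of these reads are uncertain.

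Cebpb, a regulator of inflammatory macrophages and neutrophils, was highest in nonclassical monocyte-like cells, with 2107 CPM in Phe-free, 2271 CPM in MASH and 2201 CPM in Chow. Mature neutrophil-like cells had 1497, 1735 and 2565 CPM, a range that overlaps the first. Here the libraries differed: Phe-free over Chow was 0.584 (0.563 to 0.605), where 19.6% of genes were past 1.5-fold, and MASH over Chow was 0.677 (0.653 to 0.701). Classical monocyte-like cells had 998, 1130 and 1336 CPM in the same order of libraries. Promyelocyte-like cells had 501, 629 and 804 CPM, with Phe-free over Chow at 0.624 (0.591 to 0.659). In each of these 3 types Cebpb was thus lowest in Phe-free and highest in Chow, while the whole-library values of Phe-free and Chow were alike. Immature neutrophil-like cells, with 144, 168 and 147 CPM, did not show that order.

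**Figure D3:**
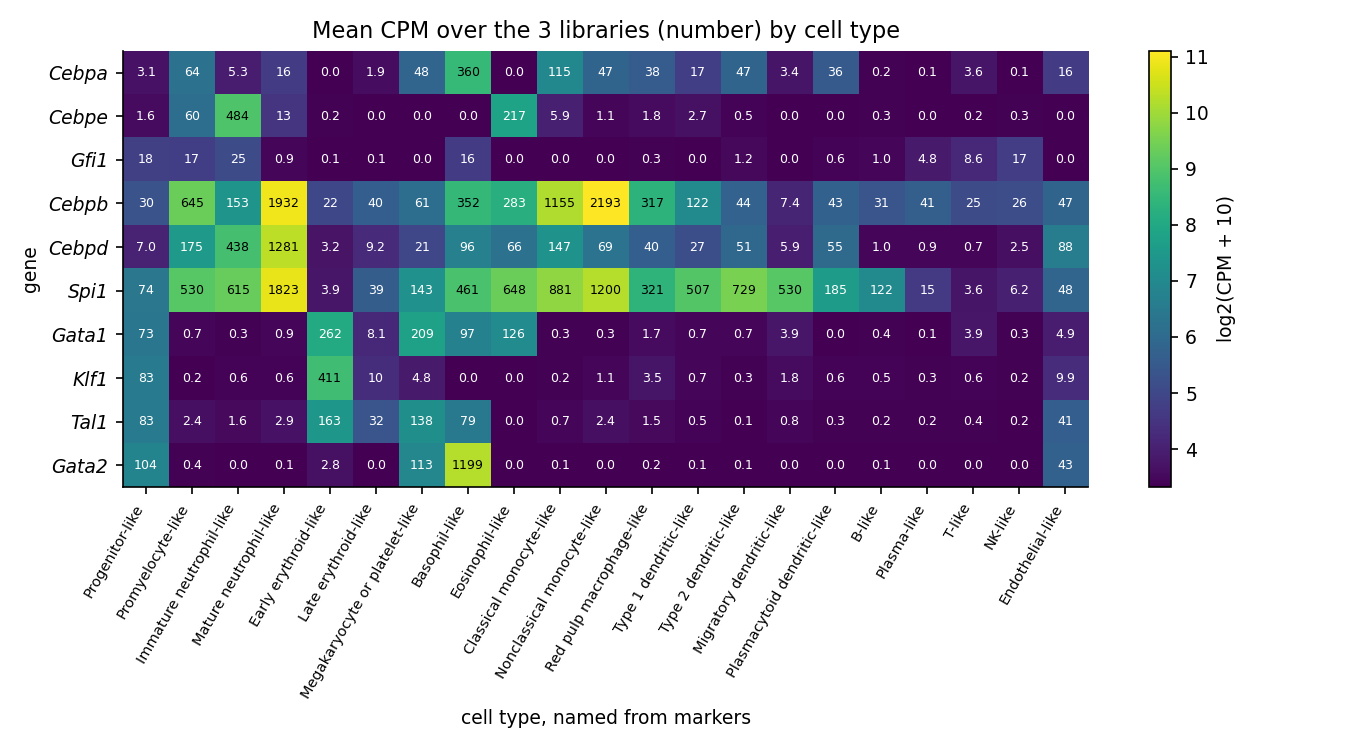
Mean CPM over the 3 libraries (printed number; colour is log2 of CPM plus 10) of each factor in each marker-named cell type. Cebpe peaks in immature and Cebpd in mature neutrophil-like cells, Klf1 in early erythroid-like cells and Gata2 in basophil-like cells.

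Spi1 was found across the myeloid and B-like types. Its levels were nearly even between libraries in those of them with at least 50 cells in each library. Of the smaller types, plasmacytoid dendritic-like cells had 232, 203 and 118 CPM in Phe-free, MASH and Chow, from 235, 107 and 59 UMIs. Progenitor-like cells had 91.7, 47.6 and 83.6 CPM from 129, 23 and 40 UMIs, while basophil-like cells were nearly even at 435, 465 and 483 CPM. Mature neutrophil-like cells had 1858 CPM in Phe-free, 1767 CPM in MASH and 1845 CPM in Chow. Nonclassical monocyte-like cells had 1252, 1218 and 1130 CPM and classical monocyte-like cells 870, 900 and 873 CPM. B-like cells had 128, 120 and 117 CPM in Phe-free, MASH and Chow, with a UMI in 58.9%, 55.1% and 56.3% of cells (22.3%, 21.8% and 20.6% after thinning). T-like cells, which are known to switch the gene off, had 3.25, 3.78 and 3.85 CPM, with a UMI in 2.23%, 2.55% and 2.62% of cells (0.364%, 0.470% and 0.603% after thinning). Plasma-like cells had 13.9, 18.0 and 12.7 CPM in Phe-free, MASH and Chow, and 41.0, 54.1 and 35.8 CPM when haemoglobin, immunoglobulin and mitochondrial UMIs were left out of the total. No type passed 1.5-fold for Spi1 in MASH over Chow among 14 tested, whose ratios ran between 0.958 and 1.42. In Phe-free over MASH and in Phe-free over Chow 1 type was past 1.5-fold, NK-like cells, with 31, 25 and 19 UMIs in Phe-free, MASH and Chow. There 4.55% and 6.2% of genes were higher past 1.5-fold, the interval of Phe-free over Chow held 1 (1.73, 0.948 to 3.25), and that ratio was 0.552 with per-cell gates.

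For Cebpa, the level within cell types also differed between libraries. It was highest in basophil-like cells, with 313 CPM in Phe-free, 351 CPM in MASH and 416 CPM in Chow, and next in classical monocyte-like cells, with 111, 83.5 and 152 CPM. Promyelocyte-like cells had 59.3, 54.2 and 78.8 CPM, a range that overlaps the types after it. Between MASH and Chow the ratio was below 1 in all 9 types with enough cells and UMIs, past 1.5-fold in 8 of them, and its counting interval lay below 1 in 6. Between 4.43% (T-like cells) and 17.3% (mature neutrophil-like cells) of all genes were lower past 1.5-fold in these types. Some of the ratios rest on few UMIs, with 7 in MASH and 61 in Chow in immature neutrophil-like cells. B-like cells had 10 and 21, and 16 of the Chow ones lay in a cluster of 507 Chow and 14 MASH cells. For Gata1 and for Klf1 only 4 and 3 types could be tested.

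In classical monocyte-like cells 1264 Cebpa UMIs were counted in Phe-free, 745 in MASH and 1075 in Chow, in 732, 477 and 443 cells. The ratio of MASH over Chow was 0.549 (0.499 to 0.603), where 5.98% of genes were lower past 1.5-fold, and the ratio stayed between 0.517 and 0.578 under the other ways of clustering, filtering and naming cells. Phe-free lay between MASH and Chow, at 1.32 (1.21 to 1.45) over MASH and 0.727 (0.669 to 0.789) over Chow. A Cebpa UMI was found in 73.5% of Phe-free, 67.1% of MASH and 79.2% of Chow cells of this type, and in 20.8%, 13.1% and 23.3% after thinning. At most 0.233% of B-like cells of a library had one before thinning. All these cells lay in 1 cluster. An unnamed cluster led by Pla2g2d, Marco and Timd4 had 142, 140 and 142 CPM of Cebpa in Phe-free, MASH and Chow, from 25, 42 and 35 UMIs.

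In mature neutrophil-like cells Cebpa had 13.8 CPM in Phe-free, 8.89 CPM in MASH and 26.1 CPM in Chow, from 56, 30 and 64 UMIs. MASH over Chow was 0.341 (0.213 to 0.533), where 17.3% of genes were lower past 1.5-fold. The type held 2 clusters, and the smaller one in Chow (98 of 609 cells) took up 406 of the 798 MASH cells. Within the larger Chow cluster the levels were 13.1, 7.08 and 20.4 CPM in Phe-free, MASH and Chow, from 42, 12 and 42 UMIs. Within the other they were 16.3, 10.7 and 55.3 CPM, from 14, 18 and 22 UMIs, so MASH was lowest in both.

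In macrophages and dendritic cells the same comparison depended on which cells were counted. Red pulp macrophage-like cells, which recycle iron from old red cells, had 45.9 CPM of Cebpa in Phe-free, 22.3 CPM in MASH and 46.9 CPM in Chow, a MASH over Chow ratio of 0.474 (0.377 to 0.594) where 10.9% of genes were lower past 1.5-fold. A small cluster of 25, 5 and 13 deep cells, led by Saa3, Arg1 and Fn1, held 138 of 289 UMIs in Phe-free, 20 of 125 in MASH and 113 of 215 in Chow. Without it the ratio was 0.790 (0.596 to 1.05), and without cells of at least 3 monocyte markers it was 0.546 (0.427 to 0.696). Type 2 dendritic-like cells had 53.7, 30.9 and 55.6 CPM in Phe-free, MASH and Chow, a ratio of 0.556 (0.424 to 0.727). In this type 7.07% of genes were lower past 1.5-fold. The ratio was 0.540 without cells that carried at least 3 monocyte markers, 0.834 with per-cell gates and 0.764 with each library clustered by itself. In type 1 dendritic-like cells, with 12.7, 13.6 and 25.2 CPM, the ratio of 0.540 (0.358 to 0.809; 5.28% of genes lower past 1.5-fold) was 0.976 without such cells, and lay above 1 with gates (1.40) and with separate clustering (1.18). In Phe-free over MASH, Cebpa was 2.06 (1.67 to 2.56) in red pulp macrophage-like cells, 1.38 (1.07 to 1.79) without the small cluster and 1.58 (1.24 to 2.01) without the cells of at least 3 monocyte markers, and 1.74 (1.34 to 2.27) in type 2 dendritic-like cells. Of all genes, 9.49% and 5.96% were higher past 1.5-fold in these types.

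**Figure D4:**
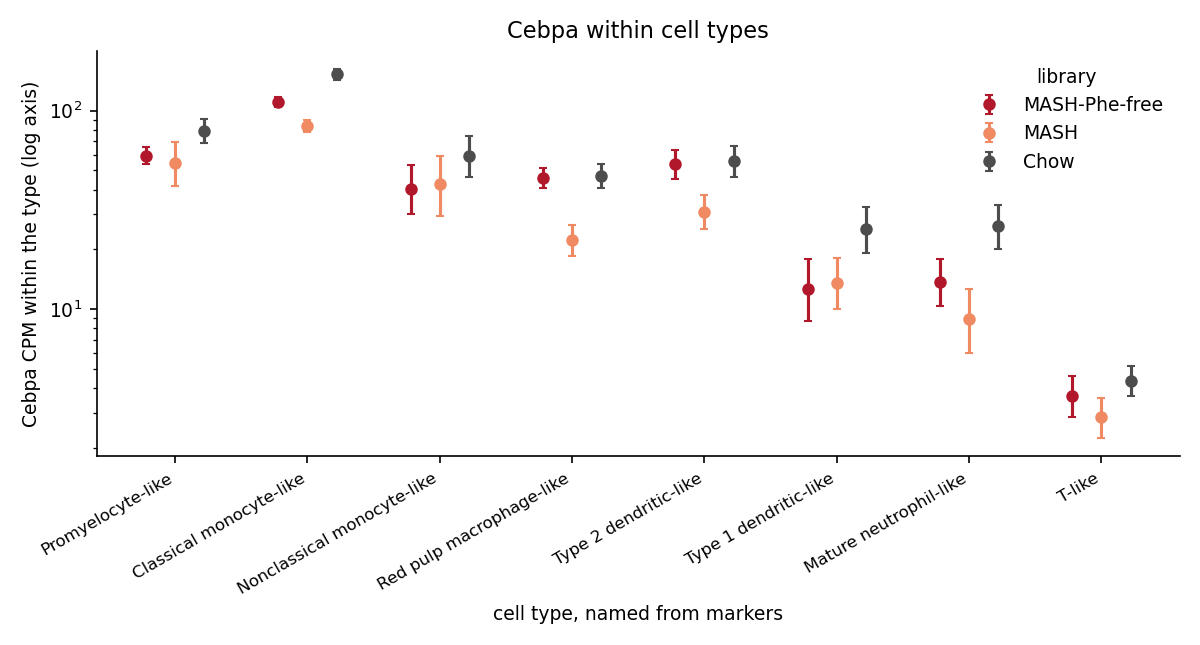
Cebpa level within cell types in CPM on a log axis, with 1 point per library (MASH-Phe-free, MASH, Chow from left to right) and exact 95% counting intervals. In classical monocyte-like cells the values are 111, 83.5 and 152 CPM, and MASH lies below Chow in every type drawn.

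The erythroid factors were concentrated in early erythroid-like cells, which carry Car1, Car2 and Ermap. Klf1 had 419 CPM in Phe-free, 482 CPM in MASH and 332 CPM in Chow there, on average 4.93 times the level of the next type, progenitor-like cells. These cells held 97.7%, 97.4% and 97.6% of the Klf1 UMIs of kept cells in Phe-free, MASH and Chow. MASH over Chow was 1.45 (1.37 to 1.54) within the type. The type held 2 clusters of unlike depth. In the shallow cluster Klf1 had 418, 442 and 404 CPM in 331 Phe-free, 271 MASH and 52 Chow cells. In the deep cluster it had 419, 485 and 326 CPM in 331, 327 and 49 cells, so most of the gap between MASH and Chow lay there. Klf1 UMIs were seen in 79.9% of Phe-free, 81.3% of MASH and 74.3% of Chow cells of the type (57.4%, 60.8% and 45.6% after thinning), against at most 0.650% of B-like cells of a library. In T-like cells Klf1 had 26, 8 and 2 UMIs in Phe-free, MASH and Chow (1.32, 0.296 and 0.0658 CPM). That is the same order as the number of early erythroid-like cells, whose part was not tested. Gata1 ran in the opposite order in T-like cells, at 3.45, 3.85 and 4.48 CPM.

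Gata1 had 286 CPM in Phe-free, 285 CPM in MASH and 216 CPM in Chow in early erythroid-like cells, with MASH over Chow at 1.32 (1.23 to 1.42). Megakaryocyte- or platelet-like cells had 189, 121 and 317 CPM, a range that overlaps the first. Eosinophil-like cells had 112, 85.8 and 180 CPM from a total of 9 UMIs, and basophil-like cells had 74.2, 98.2 and 118 CPM. Early erythroid-like cells supplied 95.7% of Gata1 UMIs in Phe-free, 93.4% in MASH and 75.6% in Chow.

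Tal1 was found in many of the same types as Gata1, with 153, 182 and 155 CPM in early erythroid-like cells of Phe-free, MASH and Chow. In late erythroid-like cells the genes parted. Tal1 had 36.7, 58.6 and 0 CPM there from 8, 158 and 0 UMIs, and Gata1 9.18, 15.2 and 0 CPM from 2, 41 and 0 UMIs. Megakaryocyte- or platelet-like cells had 147, 77.1 and 189 CPM of Tal1, progenitor-like cells 105, 106 and 39.7 CPM and basophil-like cells 66.3, 56.1 and 114 CPM. Across 47 combinations of cell type and library, the Pearson correlation of Gata1 and Tal1 on the log2(CPM + 10) scale was 0.97, against 0.78 for Gata1 with Klf1 and 0.78 for Klf1 with Tal1. These points share libraries and cell types, so the values are descriptions.

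Megakaryocyte- or platelet-like cells held few transcripts each (median UMIs 1154 in Phe-free, 1124 in MASH and 1244 in Chow), and their ratios rest on few UMIs. MASH over Chow gave Gata1 a ratio of 0.382 (0.221 to 0.641) from 22 and 52 UMIs, Tal1 0.408 (0.201 to 0.790) from 14 and 31, and Gata2 0.436 (0.213 to 0.852) from 14 and 29. In that type 50.3% of all genes tested were past 1.5-fold and 19.9% were lower. In Phe-free over Chow, Gata1 was 0.597 (0.391 to 0.907) and Gata2 0.476 (0.255 to 0.870), where 38.2% of genes were past 1.5-fold. All 3 GATA-complex genes were highest in Chow in these cells, while in whole libraries Gata1 and Tal1 were lowest in Chow.

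Gata2 was highest in basophil-like cells. They had 1172 CPM in Phe-free, 1253 CPM in MASH and 1172 CPM in Chow, on average 10.7 times the next type. That type, megakaryocyte- or platelet-like cells, had 84.0, 77.1 and 177 CPM from 20, 14 and 29 UMIs. Endothelial-like cells had 11.1, 49.3 and 69.3 CPM from 2, 10 and 8 UMIs. All 32 Phe-free, 40 MASH and 45 Chow basophil-like cells had a Gata2 UMI (90.0%, 86.8% and 77.8% after thinning), against at most 0.0929% of B-like cells of a library. Progenitor-like cells had 128, 55.9 and 130 CPM from 180, 27 and 62 UMIs. The even whole-library level hid different sources: basophil-like cells supplied 58.9% of Gata2 UMIs in Phe-free, 83.4% in MASH and 82.0% in Chow, and progenitor-like cells 24.0%, 4.20% and 8.84%. The counted gene Gm38708 overlaps Gata2, so some of its reads are uncertain.

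Ordering erythroid-like cells by the share of haemoglobin UMIs showed Gata2 mainly at the start. Among cells with under 0.1% haemoglobin UMIs (306 in Phe-free, 157 in MASH and 64 in Chow), Gata2 had 6.41, 5.45 and 4.13 CPM of non-haemoglobin UMIs. Between 0.1% and 1% it had 0.736, 0 and 0 CPM, and above 1% it was at or near 0 in every library. Gata1 had 256, 263 and 201 CPM in the first bin and 340, 316 and 252 CPM between 1% and 10%. Klf1 had 348, 347 and 284 CPM in the first bin and 536, 591 and 507 CPM between 1% and 10%. In both bins Klf1 and Gata1 were lowest in Chow. Tal1 had 127, 141 and 130 CPM in the first bin and 298 CPM in Phe-free and 335 CPM in MASH above 10%. Gata1 had 263 CPM in Phe-free and 245 CPM in MASH above 10%, below its values between 1% and 10%. The highest bin held 57 Phe-free, 496 MASH and 9 Chow cells, and the bins were set after the values had been seen.

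**Figure D5:**
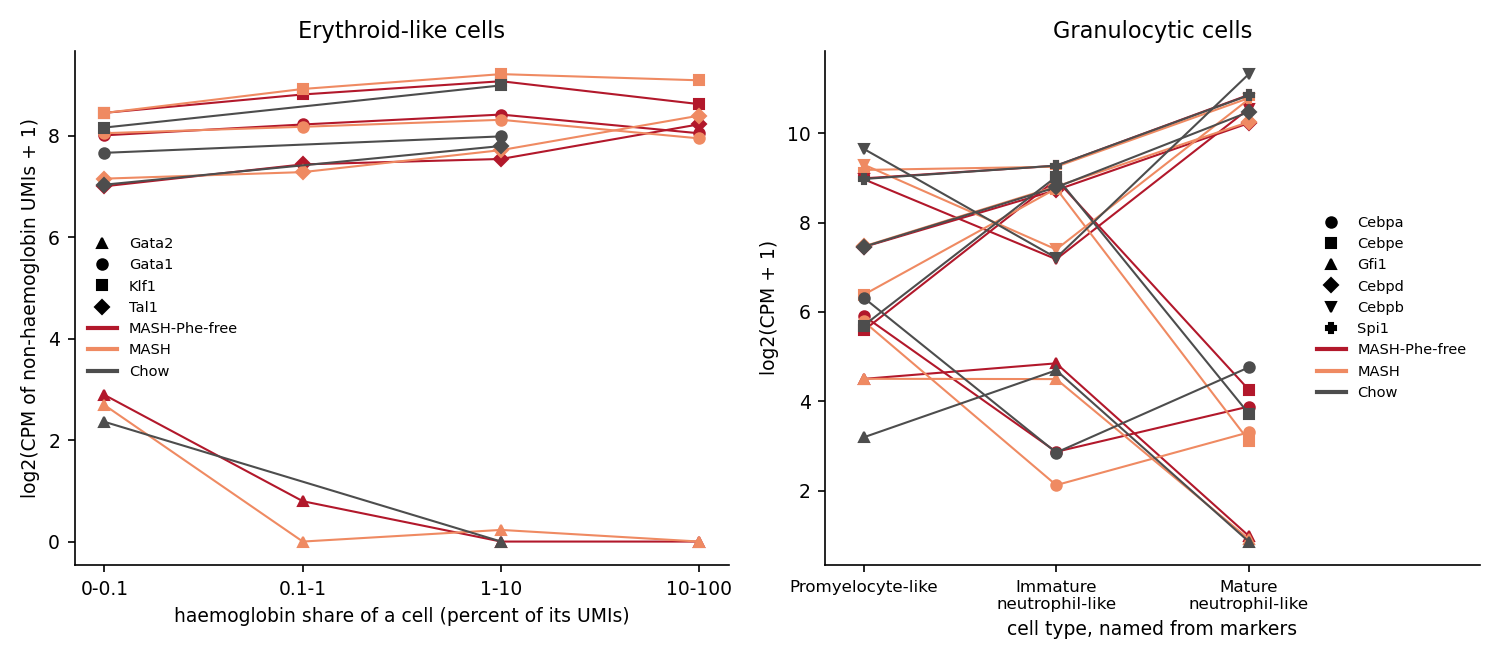
Left, log2 level (CPM of non-haemoglobin UMIs plus 1) of Gata2, Gata1, Klf1 and Tal1 in erythroid-like cells binned by haemoglobin share, for bins of at least 20 cells; right, log2(CPM + 1) of the myeloid factors in promyelocyte-, immature and mature neutrophil-like cells. Colours are libraries and marker shapes genes; Gata2 drops out after the first bin, and Cebpe is highest at the middle granulocytic stage.

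How often 2 factors were found in the same cell depended on the cell type. Of progenitor-like cells, 23 of 56 in Phe-free, 8 of 12 in MASH and 2 of 19 in Chow had both Gata1 and Gata2 (1, 0 and 1 after thinning). Every Gata1-positive Phe-free progenitor-like cell thus also carried Gata2. Cebpa and Gata1 were together in 1, 0 and 0 of these cells, and Gata1 and Spi1 in 11, 7 and 5. In early erythroid-like cells Gata1 and Klf1 were together in 66.0% of Phe-free (62.3 to 69.6), 65.7% of MASH and 65.3% of Chow cells (20.8%, 21.5% and 15.2% after thinning). Gata1 and Spi1 were together in 4.98%, 4.01% and 6.93% of them, where 4.41%, 3.45% and 4.94% would carry both if the genes were independent, and after thinning in 1, 1 and 0 cells. Of basophil-like cells, 11 of 32 Phe-free, 22 of 40 MASH and 27 of 45 Chow cells held both Cebpa and Gata1. No basophil-like cell had a Klf1 UMI in any library. In promyelocyte-like cells Cebpa and Cebpe were together in 42.3%, 40.0% and 38.1% of cells, close to the 38.2%, 38.3% and 38.1% given by independence.

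The genes nearest each factor were taken across the same 47 combinations, among 14587 genes. A combination needed at least 50 cells, which left out basophil-like cells, the type highest for Gata2 and Cebpa. Cebpa lay nearest Zeb2os (0.88), Cd68 (0.88) and Csf1r (0.87), the receptor of macrophage colony-stimulating factor. Cebpe lay nearest Tshr, Cldn15 and Gm30716 (0.98, 0.98 and 0.97), and Gfi1 nearest A430072P03Rik, Pxylp1 and Itih5 (0.94, 0.86 and 0.84). Cebpb lay nearest Klra2, Abcd2 and Fgd4 (0.94, 0.94 and 0.93), Cebpd nearest Pi16, F630028O10Rik and Mtus1 (0.95, 0.95 and 0.94). Spi1 lay nearest Csf2ra and Csf2rb, chains of the receptor for granulocyte-macrophage colony-stimulating factor (both 0.94). Gata1 lay nearest Clca3a1, Cracd and Tal1 (0.98, 0.98 and 0.97), Tal1 nearest Mfsd2b, Gata1 and Aldh1a1 (0.98, 0.97 and 0.96), and Klf1 nearest Epdr1, Icam4 and Slc38a5 (all 0.98). Gata2 lay nearest Myct1, Trpc6 and Gucy1a1 (all 0.97). The choice of nearest genes changed with the measure used.

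Over all genes tested, 9.14% were higher and 7.33% lower past 1.5-fold in MASH over Chow, 8.82% higher and 9.1% lower in Phe-free over MASH, and 12.3% higher and 12.9% lower in Phe-free over Chow, and the counts of known targets are to be read against these shares. Genes known as GATA1 or KLF1 targets followed the erythroid factors in whole libraries against Chow and parted from them between the 2 MASH groups. Between MASH and Chow 21 of 21 counted targets were higher past 1.5-fold (median log2 ratio 1.73, against -0.01 over all genes), and in Phe-free over Chow 20 of 21 were (median 1.20, against -0.01). In Phe-free over MASH none was higher and 12 of 21 were lower (median -0.53, against -0.01). Epor, the erythropoietin receptor, had 27.8 CPM in Phe-free, 21.7 CPM in MASH and 5.58 CPM in Chow, and Tspo2 18.2, 15.4 and 2.59 CPM. The α-globin genes, products of the last erythroid stage, had 464, 4247 and 121 CPM for Hba-a1 and 3.25, 27.4 and 0.886 CPM for Hba-a2, which are near-identical copies whose reads can be split. The factors and Epor were thus as high in Phe-free as in MASH or higher, and globin was far lower. Late erythroid-like cells numbered 42 in Phe-free, 382 in MASH and 8 in Chow.

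Granule genes known as C/EBPε targets moved with Cebpe: 9 of 9 were lower in MASH over Chow (median log2 ratio -2.16), 9 of 9 higher in Phe-free over MASH (median 2.28) and 2 of 9 higher in Phe-free over Chow (median 0.50), against -0.01 over all genes in each. Of all genes, 7.33% were lower in the first of these comparisons, and 8.82% and 12.3% were higher in the other two. Camp, an antimicrobial peptide, had 4702 CPM in Phe-free, 553 CPM in MASH and 3187 CPM in Chow, and Ngp had 7246, 858 and 4716 CPM. The collagenase Mmp8 (205, 52.5 and 154 CPM) and the gelatinase Mmp9 (116, 34.2 and 78.8 CPM) spanned less. Some of these genes are markers used to name the immature neutrophil-like cells. Of early granulocytic genes linked to C/EBPα or GFI1, 4 of 10 were lower in MASH over Chow, 6 of 10 higher in Phe-free over MASH and 5 of 10 higher in Phe-free over Chow, against the same shares of all genes. The granule enzymes Mpo (276, 31.0 and 54.3 CPM) and Ctsg (78.0, 7.53 and 13.6 CPM) were highest in Phe-free, while the chaperone Calr (278, 255 and 215 CPM) and Cst7 (26.2, 29.9 and 26.6 CPM) lay within 1.5-fold.

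The lists that follow stand against 9.14% of all genes higher and 7.33% lower in MASH over Chow, 8.82% and 9.1% in Phe-free over MASH, and 12.3% and 12.9% in Phe-free over Chow. Of PU.1 targets, 1 of 12 was lower in MASH over Chow, 6 of 12 were higher in Phe-free over MASH and 2 of 12 in Phe-free over Chow. The integrin gene Itgam had 159, 73.7 and 112 CPM in Phe-free, MASH and Chow and lysozyme Lyz2 4575, 2228 and 2942 CPM, while Csf1r (155, 140 and 135 CPM) and the protease Ctss (645, 642 and 649 CPM) were even. Of genes linked to GATA2, 1 of 10 was higher and 2 lower in MASH over Chow, 4 higher in Phe-free over MASH, and 4 higher and 1 lower in Phe-free over Chow. The progenitor marker Cd34 had 4.58, 0.826 and 1.29 CPM and the mast cell protease Cpa3 11.7, 6.49 and 8.18 CPM, against 45.8, 45.1 and 43.1 CPM for the histamine-forming enzyme Hdc and 3.48, 4.05 and 5.84 CPM for the receptor chain Ms4a2. Of cofactors of the erythroid factors, 3 of 15 were higher in MASH over Chow, 2 in Phe-free over MASH and 4 in Phe-free over Chow, and none was lower. Gfi1b, a repressor that acts in the erythroid and megakaryocyte lineages, had 35.2, 22.4 and 5.92 CPM. Nfe2 had 54.2, 30.5 and 30.1 CPM, E2f2 40.8, 48.5 and 26.8 CPM, and Mllt3 83.6, 98.3 and 98.3 CPM. Of other myeloid regulators, 2 of 23 were higher and 2 lower in MASH over Chow, 8 higher in Phe-free over MASH and 4 in Phe-free over Chow. Id1 had 10.8, 4.54 and 8.49 CPM and Mycn 0.856, 0.177 and 0.223 CPM in Phe-free, MASH and Chow, while Cbfb (51.5, 59.2 and 76.2 CPM) and Egr2 (2.34, 2.87 and 3.05 CPM) lay at the other end.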

How the data were processed

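Single-cell RNA of mouse spleen was captured with a Chromium 5′ kit, per the labels' protocols, and the authors deposited whole UMI counts per gene and barcode for each of 3 libraries. Per the submitters' processing notes Cell Ranger 9.0.1, Seurat 5.3.0 and the builds GRCm39 and mm39 were used; parameters and the annotation release are not given in the sources used here. Deposited barcodes held at least 500 UMIs and a library median of 6263 (Phe-free), 5873 (MASH) and 7169 (Chow).

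Barcodes with at least 300 genes, 500 UMIs and at most 10% mitochondrial UMIs were kept. Scrublet, run per library, removed 304, 318 and 315 doublets (1.92%, 1.80% and 1.97%), so doublets of like cells may remain. Counts scaled to 10000 per cell, 2000 variable genes without the 10 factors, 30 components and 15 neighbours gave 46 Leiden clusters (resolution 1.0), of which 4 were mixed and 1 unnamed. Clusters were named from 22 marker lists. UMIs were summed by type and library, with exact Poisson (CPM), conditional (ratios) and binomial (shares) 95% intervals, which cover counting error only. Ratios within types needed at least 50 cells in both libraries. Shares were also given after thinning to 2000 UMIs, shallower cells being left out. All 10 factors, the 3 genes most like each (at least 200 UMIs in all) and at most 4 genes of each of 7 gene lists, the 2 highest and the 2 lowest in Phe-free over MASH, were named; 1 gene so chosen is not reported here. The members and lists were chosen with earlier results of these data known. The alternatives tried were other resolutions, filters and naming, doublets kept, the factors among the clustering genes, each library clustered by itself, per-cell gates of 3 markers, other scaling, fold and offset, and equal cell-type makeup. Calculations were checked on simulated data. The work ran in scanpy 1.11.5 with igraph 0.11.9 and scikit-learn 1.9.0, scipy 1.17.1, numpy 2.4.6, pandas 2.3.3 and, for figures, matplotlib 3.10.9, under Python 3.11.15. Sequences came from RefSeq, on a build other than that of the counts; proteins were not analysed here.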

Additional observations from a re-analysis of the deposited data

Results flagged for a closer look

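Pairs of cell types in which a factor differed between libraries in opposite directions are given with their values; the differences between the types were not tested. In MASH over Chow, Gata1 had a ratio of 0.382 in megakaryocyte- or platelet-like cells (22 and 52 UMIs) and of 4.76 in B-like cells (22 and 5 UMIs). In Phe-free over Chow, the same gene had 0.597 in megakaryocyte- or platelet-like cells (45 and 52 UMIs) and 5.74 in B-like cells (20 and 5 UMIs). Gata1 in B-like cells stood at 0.571 CPM in Phe-free, 0.473 CPM in MASH and 0.0994 CPM in Chow, the same order as the number of early erythroid-like cells, whose part in the ratios was not tested. Cebpd in MASH over Chow had 0.522 in B-like cells (28 and 58 UMIs) and 3.86 in NK-like cells (21 and 4 UMIs), both far below its level in neutrophil-like cells.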

How the results depend on the processing

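No paired analysis was possible because each group had 1 library. The number of factors past 1.5-fold in whole libraries was 5 in MASH over Chow and 1 at equal cell-type makeup; 4 in Phe-free over MASH, 0 at equal makeup and 2 at a 2-fold limit; and 3 in Phe-free over Chow, 0 at equal makeup and 5 with median-of-ratios scaling. The remaining alternatives kept these counts within 1.5 times, and no whole-library ratio turned direction. The counts at equal makeup stand without the share of all genes at that makeup. The cell type highest for a factor was the same for 6 of 10 with per-cell gates; Gata1 and Tal1 were highest in megakaryocyte- or platelet-like cells at resolution 2.0 and with separate clustering. Of the 30 nearest genes, 4 were shared with Spearman ranks and 14 with an offset of 1 CPM. Ratios past 1.5-fold within types whose counting interval left out 1 and that turned direction were Cebpa in type 1 dendritic-like cells in MASH over Chow (1.40 with gates, 1.18 with separate clustering), Gata2 in early erythroid-like cells in Phe-free over MASH (0.477 with separate clustering), Cebpb in type 1 dendritic-like cells in Phe-free over Chow (2.19 at resolution 0.5, 2.42 at 2.0, 2.0 with gates) and Cebpe in classical monocyte-like cells in Phe-free over Chow (0.809 with separate clustering). Those whose interval held 1 were Gata1 in red pulp macrophage-like cells in Phe-free over MASH (0.654, and 2.39 with gates), Cebpd in early erythroid-like cells (1.54, and 0.983 at resolution 0.5) and Spi1 in NK-like cells (1.73, and 0.552 with gates) in Phe-free over Chow; the cause was not tested. Of the ratios whose interval left out 1, 243 planned recomputations kept their value within its counting interval, 13 moved and 7 turned. These counts pool all alternatives, and per-cell gates changed more. Of the ratios past 1.5-fold within types that gates could still test, 9 of 15 stayed past it in MASH over Chow. In Phe-free over MASH 11 of 16 did, and in Phe-free over Chow 10 of 16. Some ratios could not be tested with gates. Depth limits Gfi1 and Gata2 outside their main types and all values in eosinophil-, progenitor- and platelet-like cells, where a count of 0 or a few UMIs allows no order.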

Other observations

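T-like cells held Gata1 and Cebpa UMIs in a pattern that did not follow the lineages in which these genes are best known. One cluster of 687 Phe-free, 845 MASH and 947 Chow cells, led by Ikzf2, Cd3e and Izumo1r, held 64 of 72 Cebpa UMIs of T-like cells in Phe-free, 71 of 77 in MASH and 127 of 132 in Chow. That is 11.4, 9.49 and 14.8 CPM, whereas a T-like cluster led by Lef1, Il7r and Igfbp4 held 0, 2 and 3 UMIs. In all T-like cells the Cebpa UMIs lay in 33, 41 and 56 cells. Gata1 in the Ikzf2-led cluster had 8.16, 7.75 and 10.5 CPM from 46, 58 and 90 UMIs. T-like cells as a whole had 68, 104 and 136 Gata1 UMIs against 26, 8 and 2 Klf1 UMIs in Phe-free, MASH and Chow, while early erythroid-like cells had 7177, 4859 and 869 against 10517, 8201 and 1335. Gata2 had 2, 0 and 0 UMIs there. The source of these UMIs was not tested, and whether the Gata1 and Cebpa UMIs came from the same cells was not tested.

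Gfi1 was uneven among lymphoid cells. T-like clusters led by Ikzf2 and by Ccl5 and Nkg7 had 14.7, 17.5 and 16.6 CPM and 15.1, 13.7 and 11.4 CPM in Phe-free, MASH and Chow. The cluster led by Lef1, Il7r and Igfbp4 had 1.06, 1.93 and 2.02 CPM. Plasma-like cells had 4.25, 4.96 and 5.33 CPM, and 12.5, 14.9 and 15.1 CPM when haemoglobin, immunoglobulin and mitochondrial UMIs were left out of the total.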
